A study of Mus musculus with 4 samples.

Results

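The genes described here are 8 genes whose RNA was higher in labelled thymic than in labelled epigonadal fat nuclei: Rassf9, Hmcn1, Hdac9, Tnfrsf21, Stxbp6, Dlg2, Ttll7 and P4ha1. They are 8 of the 32285 genes in the count matrices. They were chosen for this difference, summed over all labelled nuclei, among 704 genes with at least 50 UMIs (counted RNA molecules), at least 50 CPM (UMIs per 1000000 nuclear-encoded UMIs) and 2 times or more of their level in unlabelled thymic barcodes. The values that chose them are therefore a description. P4ha1, at rank 9 of that ordering, had a log2 ratio of 1.80 (99 thymic and 115 epigonadal UMIs). Just below it Dll4, a Notch ligand that is not among the 8 genes, had 1.70 (50 and 62 UMIs). Robo2, an axon guidance receptor at rank 4, had 2.06 and is not among them either. All 8 lay above a log2 ratio of 1 over all labelled nuclei, where 8.12% of 11306 genes did; the choice fixed this count.

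Endothelial cells line blood vessels, and those of the capillaries in fat pass fatty acids from the blood to adipocytes. They hold together through junction proteins such as Pecam1 and Cdh5, lie on a basement membrane, and move receptors and lipids through vesicles. In the thymus, vessels also let progenitors in and mature T cells out. The 8 genes encode proteins of several of these compartments: the matrix and the making of collagen (Hmcn1, P4ha1), the cell surface (Tnfrsf21), scaffolds and endosomes (Dlg2, Rassf9), vesicle fusion and microtubules (Stxbp6, Ttll7) and the nucleus (Hdac9).

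The study enriched floating cells from digested tissue and measured RNA in single nuclei with the 10x droplet assay. The thymic library came from 6 pooled thymi of naive wild-type male C57/BL6 mice aged 4 months on standard chow. The epigonadal library came from naive wild-type male epigonadal white fat at 4 months. Neither its strain nor how many animals it pooled is stated in the labels. Chromatin was measured in another library, from 16 pooled thymi of naive wild-type female C57/BL6 mice aged 6 months. With 1 library for each tissue there is no replicate check, and no p-value is given. Intervals are 95% and cover counting error only.

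The authors labelled every kept nucleus as a kind of adipocyte (Ad Ia and Ad Ib, here Ad I together, and Ad IIa to Ad IIc). In the thymic library 365 barcodes had a label, with 534972 nuclear-encoded UMIs, and 22235 had none. In the epigonadal library 1564 had a label, with 2157889 nuclear-encoded UMIs, and 3479 had none. Ad IIa held 231 thymic nuclei (median 1696 UMIs) and 590 epigonadal nuclei (median 1916 UMIs). In Ad IIa all 15 endothelial markers were present in both libraries, at 12560 CPM in the thymic and 9454 CPM in the epigonadal nuclei together. Cdh5, a junction protein of endothelial cells, had 805 and 628 CPM there against 76.6 CPM (4 UMIs) and 110 CPM in Ad I. The 2 Ad IIa groups differed in other RNA. The adipocyte markers summed to 12913 CPM in thymic and 29678 CPM in epigonadal Ad IIa, with 13 of 13 detected in both. Adipoq, an adipocyte hormone gene, had 9.96 and 449 CPM, and Plin1, a lipid droplet gene, 9.96 and 97.0 CPM. Pparg, which endothelial cells of fat also express, had 2371 and 2012 CPM. The median share of mitochondrial UMIs was 13.3% in thymic and 4.63% in epigonadal Ad IIa, and the blood gene Hbb-bs had 127 and 29.1 CPM. Ratios among nuclei under 10% mitochondrial UMIs are given below. Otherwise the part of these differences in the results below was not tested. The libraries shared 147 barcode sequences, none of them labelled in both, and 1 of these was a labelled thymic and 50 were labelled epigonadal nuclei.

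Within Ad IIa, all 8 genes were above a log2 ratio of 1, thymic over epigonadal, where 5.44% of 9775 genes were. These nuclei are part of those that chose the genes, so the count is a description. The median of the 8 genes was 1.78, against −0.02 for all genes. In thymic Ad IIa the variance of UMIs between nuclei was 1.41 to 9.17 times the mean, highest for Hdac9, so counting intervals are narrower than the spread between nuclei would give.

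Of the genes for matrix and collagen, Hmcn1 encodes hemicentin-1, a very large extracellular protein related to the fibulins. Hmcn1 (chr1:150562500-150993652, GRCm38) had 69 UMIs in thymic Ad IIa, or 172 CPM, and 52 UMIs in epigonadal Ad IIa, or 42.0 CPM. The log2 ratio was 2.03 (1.49 to 2.58). P4ha1 encodes a catalytic subunit of collagen prolyl 4-hydroxylase, which modifies collagen in the endoplasmic reticulum and is a known target of hypoxia-inducible factors. P4ha1 (chr10:59323197-59373304) had 80 and 86 UMIs, or 199 and 69.5 CPM, a log2 ratio of 1.52 (1.06 to 1.98). For both genes the counting intervals of the 2 levels did not overlap, which the choice of the genes favoured.

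Tnfrsf21 encodes death receptor 6, a member of the tumour necrosis factor receptor family at the cell surface. Tnfrsf21 (chr17:43016555-43089188) had 49 UMIs in thymic and 55 in epigonadal Ad IIa, or 122 and 44.5 CPM. Its log2 ratio of 1.46 (0.87 to 2.04) was the lowest of the 8.

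Among scaffold and endosome genes, Rassf9 encodes a Ras-association domain protein known from recycling endosomes. Rassf9 (chr10:102512222-102549737) had 84 UMIs in thymic and 47 in epigonadal Ad IIa, or 209 and 38 CPM, a log2 ratio of 2.45 (1.93 to 3.01). Dlg2 encodes a membrane-associated guanylate kinase (MAGUK) scaffold best known from synapses. Dlg2 (chr7:90476188-92449246) had 145 and 104 UMIs, or 361 and 84.1 CPM, a log2 ratio of 2.10 (1.73 to 2.48). Both levels were higher in the thymic nuclei, as the choice of the genes required over all labels.

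Stxbp6 encodes amisyn, which binds SNARE proteins and restrains vesicle fusion. Stxbp6 (chr12:44852484-45075118) had 204 UMIs in thymic and 218 in epigonadal Ad IIa, or 508 and 176 CPM, a log2 ratio of 1.53 (1.25 to 1.81). Ttll7 encodes an enzyme that adds glutamate chains to tubulin. Ttll7 (chr3:146852184-146984009) had 55 and 60 UMIs, or 137 and 48.5 CPM, a log2 ratio of 1.5 (0.94 to 2.05). After each nucleus was thinned to 500 UMIs, the log2 ratio of Ttll7 was 0.45, and among nuclei under 10% mitochondrial UMIs (52 thymic and 517 epigonadal) it was 0.42. The other 7 genes stayed above 1 in both of these settings.

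Hdac9 encodes a class IIa histone deacetylase that represses MEF2 transcription factors. Hdac9 (chr12:34047580-34917095) had 123 UMIs in thymic and 69 in epigonadal Ad IIa, or 306 and 55.8 CPM, a log2 ratio of 2.45 (2.02 to 2.90). Its thymic UMIs lay in 32 of 231 nuclei, and the 3 highest nuclei held 20, 16 and 15 of them. The 5 highest nuclei held 55.3% of its thymic UMIs, against 16.7% to 32.7% for the other 7 genes. Without the 5 highest nuclei of each library, 55 thymic and 48 epigonadal UMIs were left, and the log2 ratio was 1.82.

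**Figure D1:**
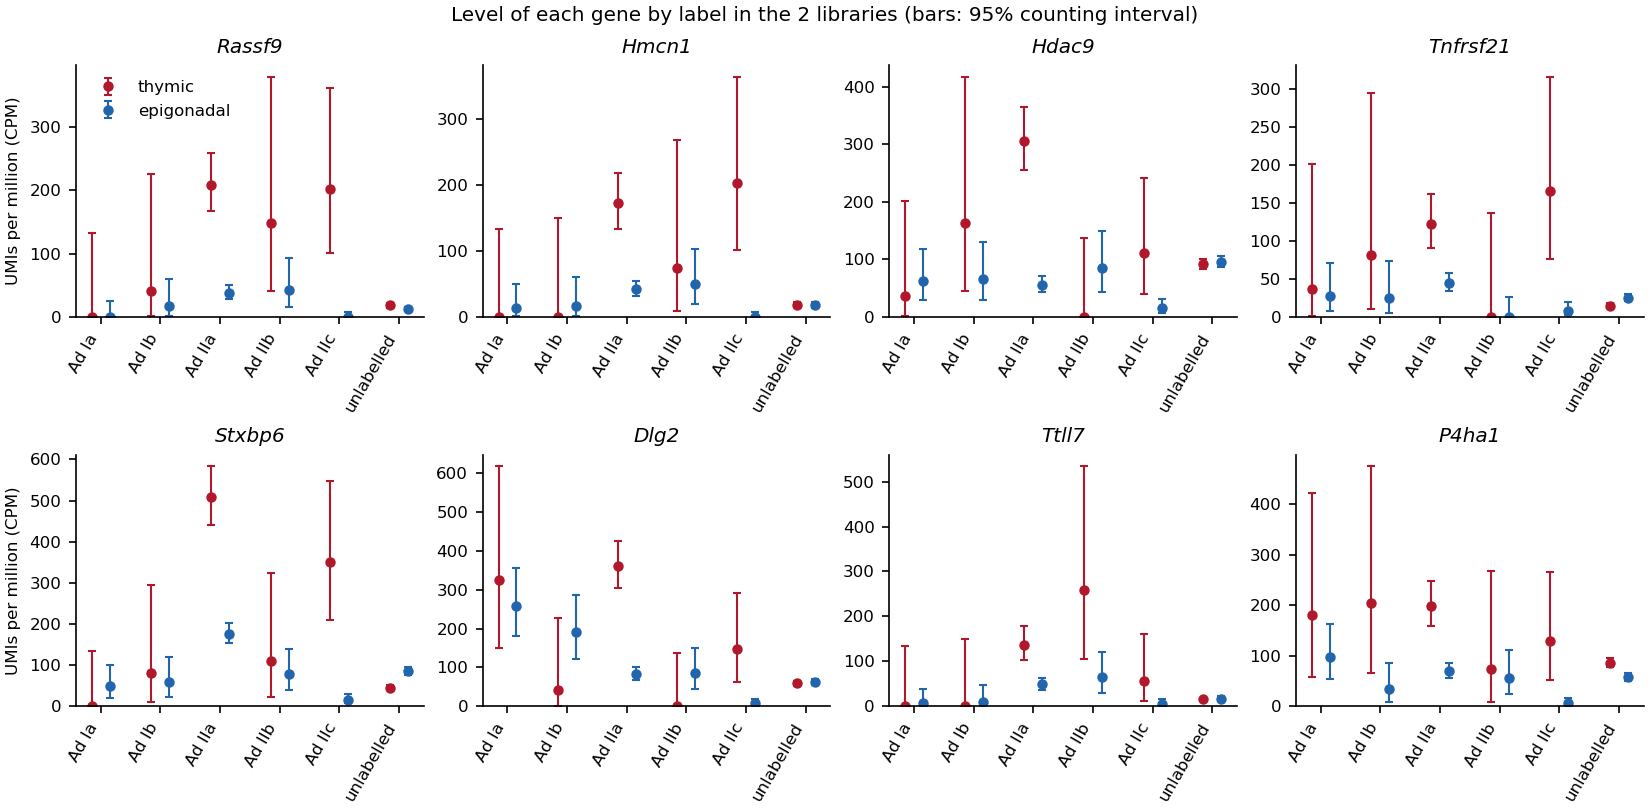
Level of each gene (CPM, linear axis) in the 5 labels and in unlabelled barcodes of the thymic (red) and epigonadal (blue) library. Points are sums over all nuclei of 1 library and lines are 95% Poisson intervals. In Ad IIa the thymic point lies above the epigonadal point in all 8 panels, from 122 against 44.5 CPM for Tnfrsf21 to 508 against 176 CPM for Stxbp6.

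The share of Ad IIa nuclei with at least 1 UMI gave the same direction as the levels before thinning. Rassf9 was found in 24.7% of thymic and 6.10% of epigonadal nuclei, Hmcn1 in 17.3% and 6.10%, and Hdac9 in 13.9% and 6.78%. Stxbp6 was found in 39.4% and 21.5%, P4ha1 in 26.4% and 12.5%, and Dlg2 in 22.5% and 9.83%. Tnfrsf21 was found in 16.0% and 7.46%, and Ttll7 in 15.2% and 9.83%. As a background, thymic barcodes with T cell markers (1555 barcodes, median 694 UMIs) held Rassf9 and Stxbp6 in 0.129% each, and Ttll7 in 0 of 1555, which allows a share of up to 0.193%. Hdac9 was found in 2.06% and P4ha1 in 3.15% of those barcodes. They are part of the unlabelled thymic sum that each gene had to exceed by 2 times, which favoured low shares there. They also held fewer UMIs than Ad IIa nuclei, so these shares are a description.

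Thinned to 500 UMIs per nucleus (229 of 231 thymic and all 590 epigonadal Ad IIa nuclei deep enough), the shares moved closer for some genes. Rassf9 then had 10.9% and 2.54%, Stxbp6 17.5% and 7.46%, Dlg2 11.4% and 4.75%, and Hdac9 7.42% and 2.54%, with intervals that did not overlap. The intervals overlapped for P4ha1 (6.99% and 2.71%), Hmcn1 (5.24% and 2.37%), Tnfrsf21 (3.49% and 2.20%) and Ttll7 (3.06% and 2.88%). In epigonadal Ad IIa, the 60 UMIs of Ttll7 lay in 58 nuclei with a median of 2966 UMIs, above the median of 1916 for all nuclei of that label.

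**Figure D2:**
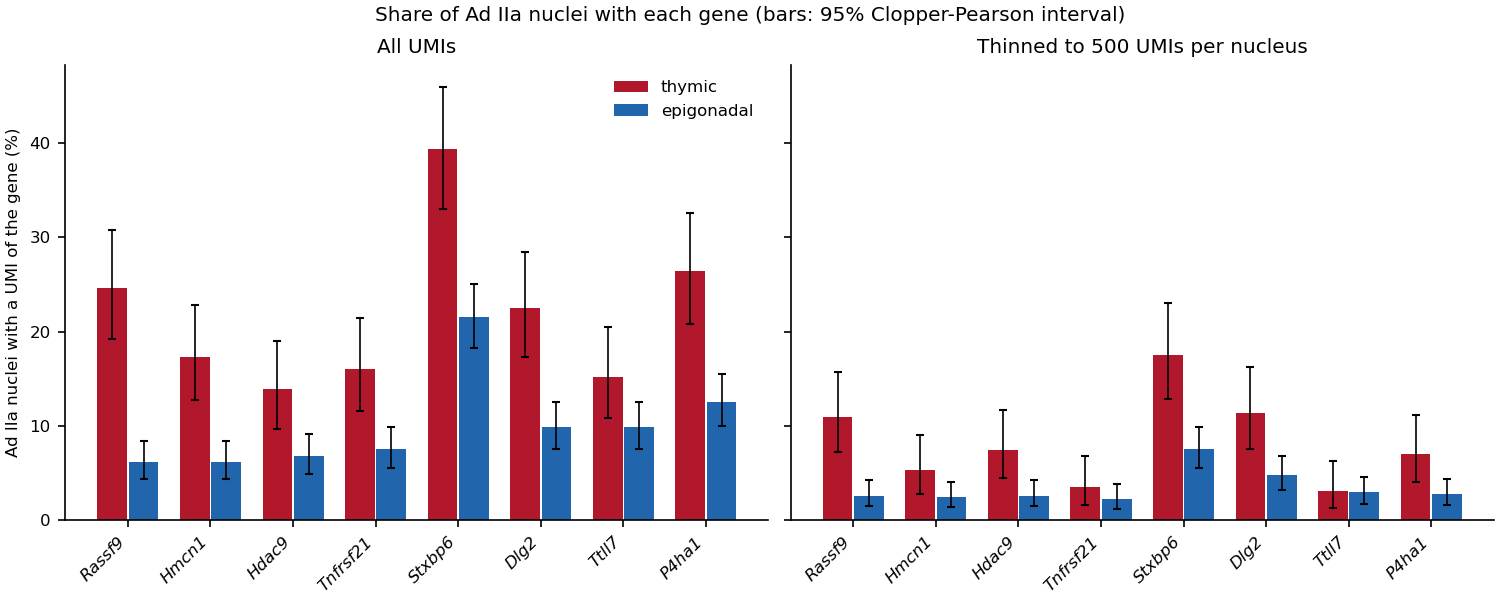
Share of Ad IIa nuclei (percent, axis from 0) with a UMI of each gene in the thymic (red) and epigonadal (blue) library, with all UMIs on the left and thinned to 500 UMIs per nucleus on the right. Lines are 95% Clopper-Pearson intervals. Thinning leaves Rassf9 at 10.9% against 2.54% and brings Ttll7 to 3.06% against 2.88%.

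Detection of several of the genes in 1 nucleus is given as a description, since the choice of the genes favours thymic nuclei. At least 1 of the 8 genes was found in 82.7% of thymic and 53.2% of epigonadal Ad IIa nuclei, and in 47.2% and 24.4% after thinning. At least 3 were found in 25.1% and 5.08%, and after thinning in 3.93% (9 of 229) and in 0 of 590, which allows a share of up to 0.508%. Rassf9 and Stxbp6 shared 28 thymic Ad IIa nuclei, 49.1% of the 57 with Rassf9 and 30.8% of the 91 with Stxbp6. Hdac9 and Ttll7 shared 2 nuclei, 6.25% of the 32 with Hdac9 and 5.71% of the 35 with Ttll7. Nuclei with more UMIs show more genes, and nuclei with Stxbp6 had a median of 2207 UMIs against 1696 for the label.

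In Ad I (84 thymic and 258 epigonadal nuclei), few UMIs were found. Of the 5 genes with at least 10 UMIs, 2 were above a log2 ratio of 1, where 15.2% of 5346 genes were. P4ha1 had 10 and 18 UMIs, or 191 and 68.2 CPM, a log2 ratio of 1.52 (0.21 to 2.68). Tnfrsf21 had 3 and 7 UMIs, a log2 ratio of 1.24 (−1.47 to 3.25), so its interval included 0. Dlg2 had 10 and 60 UMIs, or 191 and 227 CPM, a log2 ratio of −0.19 (−1.38 to 0.73). Of its 10 thymic UMIs 6 lay in 1 of the 84 nuclei, and the ratio ran from −3.25 to 0.75 over 9 alternatives. Stxbp6, with 2 and 14 UMIs, had −0.20, and Hdac9, with 5 and 17 UMIs, had 0.67, both with intervals that included 0. Rassf9 (1 and 2 UMIs), Hmcn1 (0 and 4) and Ttll7 (0 and 2) were too low to compare at this depth.

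The other 2 labels held few UMIs or mixed content. Ad IIb had 16 thymic and 58 epigonadal nuclei, and 2 of 6 genes with enough UMIs were above 1, where 16.4% of 3245 genes were; 2 were below −1 (Hdac9 and Dlg2, from 0 thymic UMIs), where 13.4% were. Ttll7 had 7 and 9 UMIs there, or 259 and 63.9 CPM, a log2 ratio of 2.04 (0.36 to 3.61). Hdac9 and Dlg2 each had 0 thymic UMIs, which allows up to 111 CPM, against 85.3 CPM in the epigonadal nuclei, so a difference was not detectable at this depth. In Ad IIc (34 and 658 nuclei), all 7 genes with enough UMIs were above 1, where 32.7% of 6481 genes were. Rassf9 and Hmcn1 each had 11 thymic and 0 epigonadal UMIs there. With the 0 set to a floor of 3 counts, the log2 ratio was 5.12 (lower limit of the counting interval 4.58). Ad IIc held endothelial markers in the thymic library (10799 CPM, 15 of 15 detected) and was adipocyte-rich in the epigonadal library (548 CPM of endothelial and 95334 CPM of adipocyte markers), so this label did not compare 1 kind of nucleus. The adipocyte markers summed to 20087 CPM in thymic Ad IIc, and the blood gene Hbb-bs had 9085 CPM there against 96.9 CPM in epigonadal Ad IIc; its part in the ratios was not tested.

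Within a library, the 8 genes did not all mark Ad IIa over Ad I. The thymic Ad IIa UMIs are most of the labelled thymic UMIs that entered the choice of the genes, so the thymic values are a description. In the thymic library 5 of 8 were above a log2 ratio of 1, where 28.2% of 6095 genes were. Stxbp6 had 508 CPM in Ad IIa and 38.3 CPM in Ad I (2 UMIs), a log2 ratio of 3.41 (1.86 to 6.79). Rassf9 had 209 and 19.1 CPM (1 UMI), a log2 ratio of 2.87 (0.93 to 8.77). Hmcn1 and Ttll7 had 0 UMIs in thymic Ad I. With the 0 set to the floor of 3 counts, their log2 ratios were 1.58 and 1.25 (lower limits of the counting intervals 1.24 and 0.91). Hdac9 had 306 and 95.7 CPM, a log2 ratio of 1.55 (0.42 to 3.33). Dlg2 (361 and 191 CPM, 0.85), Tnfrsf21 (122 and 57.4 CPM, 0.88) and P4ha1 (199 and 191 CPM, −0.00) had intervals that included 0. The median of the 8 was 2.21, or 1.40 with the 2 genes at 0 set to that floor, against 0.08 for all genes.

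In the epigonadal library 4 of 8 were above 1 in Ad IIa over Ad I, where 19.8% of 10064 genes were. These were Ttll7 (2.37), Rassf9 (2.02), Stxbp6 (1.68) and Hmcn1 (1.32), each with an interval above 0. Dlg2 was lower in epigonadal Ad IIa, at 84.1 CPM against 227 CPM in Ad I, a log2 ratio of −1.44 (−1.91 to −0.95), where 17.5% of genes were below −1. Hdac9 had 55.8 and 64.4 CPM, a log2 ratio of −0.24 (−0.99 to 0.65), and Tnfrsf21 and P4ha1 had 0.66 and −0.00, with intervals that included 0. With a pseudocount of 5 UMIs, Stxbp6 alone of the 8 stayed above 1, in both libraries. With 0.5 UMI added, Rassf9, Hmcn1, Stxbp6 and Ttll7 had ratios above 1 in both libraries, and P4ha1 had close levels in the 2 labels within each library, although its epigonadal log2 ratio was 1.62 after thinning. P4ha1, Dlg2, Hdac9 and Tnfrsf21 were not above 1 in both libraries. The Ad IIa nuclei held endothelial markers beside an adipocyte marker sum that was as high (thymic) or higher (epigonadal). That sum also counts Pparg (2371 CPM in thymic Ad IIa), so it does not measure adipocyte RNA alone. Adipoq and Plin1 had 4 UMIs (9.96 CPM) each in thymic Ad IIa, below the 99.5 and 104 CPM of unlabelled thymic barcodes. The sum of all 13 adipocyte markers went the other way, at 12913 CPM against 7376 CPM in unlabelled thymic barcodes. Pparg had 2371 and 380 CPM of these sums. How much of the RNA of Ad IIa nuclei the name endothelial-like covers was not tested.

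The order of levels over the labels differed between genes. For Dlg2 in the epigonadal library, Ad Ia (258 CPM) and Ad Ib (191 CPM) came first and overlapped, followed by Ad IIb (85.3) and Ad IIa (84.1), which also overlapped, with Ad IIc last (7.75). Ad Ib and Ad IIb overlapped too. In the thymic library Ad IIa (361) and Ad Ia (325) overlapped, and Ad Ib had 40.7 CPM from 1 UMI. The Ad Ia value came from 9 UMIs, 6 of them in 1 of 35 nuclei. For Stxbp6 Ad IIa came first in both libraries (508 and 176 CPM); in the thymic library Ad IIc (350 CPM) overlapped it, and in the epigonadal library Ad IIb followed at 78.2 CPM without overlap. For Rassf9, thymic Ad IIa (209 CPM), Ad IIc (203) and Ad IIb (148) overlapped and Ad Ia had 0 UMIs. Epigonadal Ad IIb (42.6) and Ad IIa (38) overlapped too.

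Barcodes without a label also held these RNAs. Free RNA can give UMIs in such droplets, and its part was not tested. They were grouped by at least 3 markers of a class and at most 1 of each other class. Hdac9 was high in barcodes with B cell markers (465 CPM in 65 thymic and 700 CPM in 14 epigonadal barcodes) and with macrophage markers (823 CPM in 28 thymic and 287 CPM in 28 epigonadal barcodes). These levels rest on few UMIs. The B cell classes held 45154 thymic and 11430 epigonadal nuclear-encoded UMIs in all, and the macrophage classes 14588 and 24407. Stxbp6 had 206 and 205 CPM in the macrophage class from 3 and 5 UMIs. P4ha1 was found in fibroblast-marker barcodes at 204 and 133 CPM and in thymic adipocyte-marker barcodes at 176 CPM, close to its 199 CPM in thymic Ad IIa. Hmcn1 had 74.1 and 114 CPM in the fibroblast class, from 4 and 6 UMIs. Rassf9, Ttll7 and Tnfrsf21 had at most 22.1 CPM in the adipocyte, T cell, B cell, macrophage and fibroblast classes of both libraries. Most of these values were 0 UMIs in few barcodes, and 0 allows up to 206 CPM in the thymic macrophage class and 262 CPM in the epigonadal B cell class. The thymic classes are part of the unlabelled sum that each gene had to exceed by 2 times, so low levels there were favoured by the choice.

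**Figure D3:**
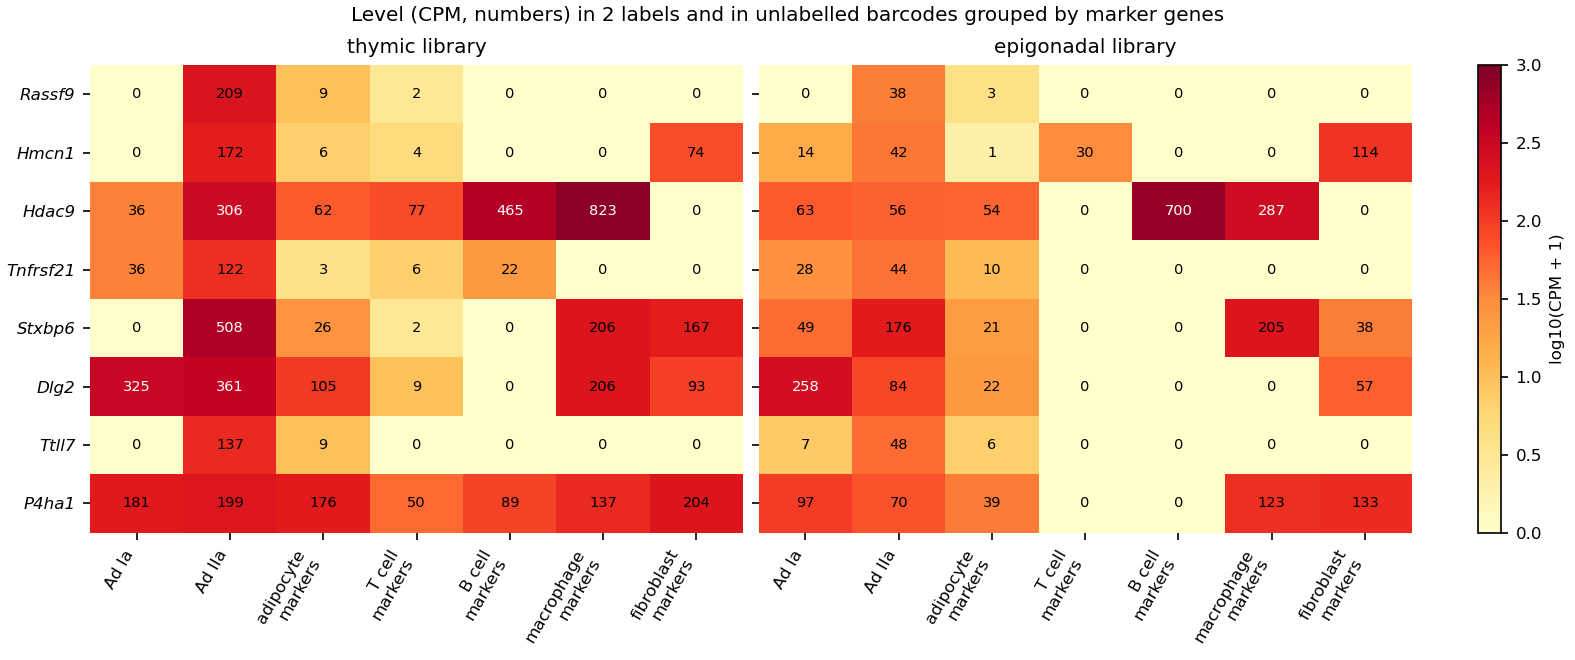
Level of each gene (numbers, CPM; colour, log10 of CPM + 1) in Ad Ia, Ad IIa and 5 classes of unlabelled barcodes grouped by marker genes, thymic library on the left and epigonadal on the right. Hdac9 is highest in the macrophage class of the thymic library (823 CPM) and the B cell class of the epigonadal library (700 CPM), while Rassf9 reaches 209 and 38 CPM in Ad IIa.

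Over all unlabelled barcodes of its own library, thymic Ad IIa was above a log2 ratio of 1 for 8 of 8 genes, where 16.5% of 13323 genes were; the ranking required a related excess. Epigonadal Ad IIa was above 1 for 4 of 8 (Rassf9, Ttll7, Hmcn1 and Stxbp6, from 1.05 to 1.64), where 8.88% of 13442 genes were. Hdac9 was below its unlabelled level there, at 55.8 against 95.8 CPM, a log2 ratio of −0.77 (−1.17 to −0.41). The 22235 unlabelled thymic barcodes had a median of 69.3% mitochondrial UMIs and the 3479 epigonadal ones 10.9%, so these are not 1 kind of background.

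Unlabelled barcodes with endothelial markers were not in the labelled sums that gave the ratios behind the ranking. They were in the unlabelled thymic sum that each gene had to exceed, so they are not fully apart from the choice. By the strict rule 62 thymic barcodes (median 490 UMIs) qualified but 1 epigonadal barcode did, with 493 nuclear-encoded UMIs. The tissues could therefore not be compared, and 0 of 2 genes with enough UMIs and 1.68% of 357 genes were above 1. In those 62 thymic barcodes Rassf9 and Tnfrsf21 had 1 UMI each (42.5 CPM), against 209 and 122 CPM in thymic Ad IIa. Hmcn1 had 3 UMIs (127 CPM), Ttll7 4 (170), Stxbp6 5 (212) and Dlg2 8 (340). Hdac9 and P4ha1 had 11 UMIs each (467 CPM), against 306 and 199 CPM in thymic Ad IIa. These counts are small. Unlabelled barcodes start at 230 UMIs in the thymic and at 500 UMIs in the epigonadal library, and the part of this limit was not tested. With markers of other classes allowed, 391 thymic (median 902 UMIs) and 533 epigonadal barcodes (median 1439 UMIs) had at least 3 endothelial markers. In these, 7 of 8 genes were above a log2 ratio of 1, thymic over epigonadal, where 7.42% of 10025 genes were. Rassf9 had 63 and 42 UMIs, or 178 and 35.3 CPM, a log2 ratio of 2.33 (1.75 to 2.94). Hdac9 had 184 and 35.3 CPM (2.38; 1.80 to 2.98), and P4ha1 195 and 41.1 CPM (2.24; 1.70 to 2.81). Ttll7 had 1.65, Hmcn1 1.57, Dlg2 1.36 and Stxbp6 1.24, each with an interval above 0. Tnfrsf21 had 20 and 42 UMIs, or 56.6 and 35.3 CPM, a log2 ratio of 0.70 (−0.16 to 1.48).

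The same barcodes differed in other RNA as the labelled ones did. Their adipocyte markers summed to 13234 CPM in the thymic and 38371 CPM in the epigonadal library, their endothelial markers to 11051 and 7613 CPM, and their median mitochondrial share was 30.0% and 6.82%. The part of these in the ratios was not tested. They come from the same 2 libraries as the labelled nuclei and so are no replicate of the tissues. Allowing adipocyte markers alone among the other classes left 341 and 411 barcodes and again 7 of 8 genes above 1, where 7.95% of 8695 genes were, with Tnfrsf21 at 0.93.

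**Figure D4:**
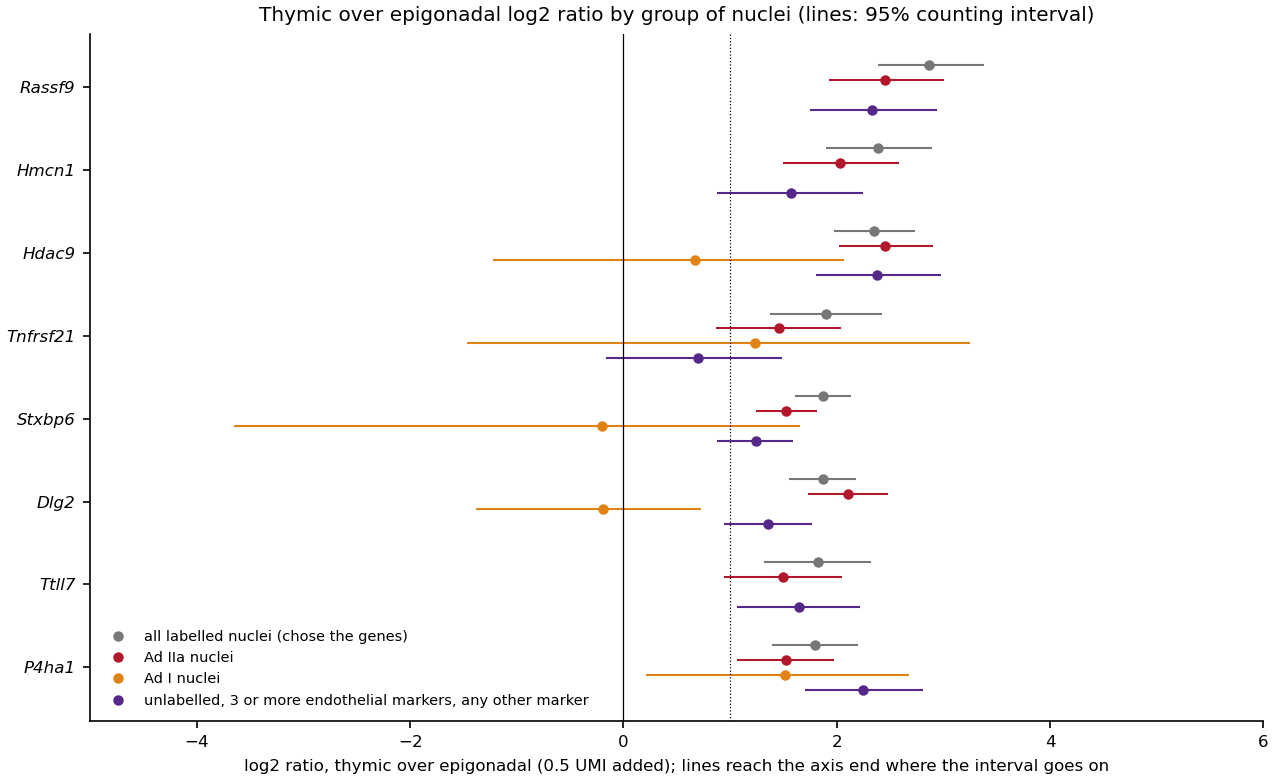
Log2 ratio of each gene, thymic over epigonadal (0.5 UMI added), in all labelled nuclei (grey, which chose the genes), Ad IIa (red), Ad I (orange) and unlabelled barcodes with at least 3 endothelial markers and any other marker (purple). Lines are 95% counting intervals, the solid vertical line is 0 and the dotted one is 1; Ad I is drawn for the 5 genes with at least 10 UMIs. Rassf9 sits between 2.33 and 2.87 in 3 groups, while Dlg2 is at 2.10 in Ad IIa and −0.19 in Ad I.

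The genes nearest in pattern were found by Pearson's r of log2(CPM + 10) over the 10 label sums of the 2 libraries, among 4706 genes with at least 100 labelled UMIs. Over sums that share 2 libraries and differ widely in depth, r is a description. Nearest to Stxbp6 were Lims2 and Galnt15 (both 0.97), to Hmcn1 Sash1 (0.96) and Fam117b (0.96), and to Rassf9 Cmtm8 (0.96) and Sec14l1 (0.94). Ttll7 was nearest to Trib2 and Epb41l4a (both 0.96), P4ha1 to Dmtf1 (0.97) and Pign (0.94), and Dlg2 to Lpp (0.94) and Supt3 (0.92). Hdac9 was nearest to Spred2 and Atg16l1 (both 0.92), and Tnfrsf21 to Itgb5 and Mtss1 (both 0.89). Among the 28 pairs of the 8 genes, r ran from −0.24 (Dlg2 and Ttll7) to 0.88, with a median of 0.43.

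The genes were long. Their median span was 177 kb against 26.4 kb for the 11040 tested genes with a RefSeq span, and 5 of 8 exceeded 100 kb, as 15.5% of those genes did. Among genes with at least 50 labelled UMIs, a minimum nearer to that of the choice, the median was 34.1 kb and 18.9% exceeded 100 kb. Neither set had to reach 2 times its level in unlabelled thymic barcodes, as the 704 genes of the choice did. The spans of those 704 genes were not compared, so the part of that limit in the long spans was not tested. Dlg2, at 1973 kb, was longer than 99.9% of genes and Hdac9, at 870 kb, than 99.3%, while Rassf9 spans 37.5 kb. The thymic over epigonadal ratio of all genes moved with span in Ad IIa, where the median log2 ratio was −0.54 for genes under 10 kb and 0.29 for genes over 300 kb, and 11% of the latter were above 1. In Ad I the medians were −0.39 under 10 kb, 0.21 from 30 to 100 kb and −0.07 over 300 kb. Nuclear RNA holds introns, and how introns were counted is not stated in the sources at hand. The part of span in the 8 ratios was not tested. No protein-coding gene in the RefSeq table overlaps any of the 8, though non-coding or predicted entries overlap Hdac9 (6), Stxbp6 (3) and Dlg2 (7), whose counts could include reads from them.

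Related genes were set beside each of the 8 in Ad IIa, thymic over epigonadal, where 16.2% of genes were below a log2 ratio of −1. The medians of the 9 lists ran from −0.92 to 0.40. The 8 genes were chosen for a high ratio and the lists were not, so the lists stand beside them as a description. Of 10 MAGUK scaffold genes with enough UMIs, 0 were above 1; Dlg1 had 291 and 158 CPM (0.88) and Cask 371 and 210 CPM (0.82), beside 2.10 for Dlg2. Of 12 class IIa deacetylase and MEF2 genes, 1 was above 1, Mef2b (1.01, from 9 and 14 UMIs). Mef2c, the MEF2 factor of vascular development, had 805 and 437 CPM, a log2 ratio of 0.88 (0.68 to 1.08).

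Beside Hmcn1, 1 of 10 genes of the hemicentin, fibulin and basement membrane list was above 1 and 3 were below −1. Lama4, a laminin chain of vessel walls, had 364 and 263 CPM (0.47), and the elastic fibre gene Fbln5 had 7.47 and 26.7 CPM (−1.64; −4.19 to −0.16). Of 9 collagen hydroxylase genes, P4ha2 was the 1 above 1 (1.48, from 9 and 10 UMIs, interval including 0), and P4hb, which encodes the partner subunit of P4ha1, had 19.9 and 48.5 CPM (−1.21; −2.56 to −0.21). The target genes of hypoxia-inducible factors, among which P4ha1 is counted, had a median of −0.92 with 0 of 9 above 1 and 4 below −1. Bnip3, a mitophagy gene, had 24.9 and 132 CPM (−2.34) and Aldoa, a glycolytic enzyme gene, 42.3 and 216 CPM (−2.31). The highest of the list were Egln1, an oxygen-sensing hydroxylase gene, at 159 and 131 CPM (0.29), and Pdk1, a kinase gene that limits pyruvate oxidation, at −0.48, both with intervals that included 0.

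Of 9 death receptor genes 0 were above 1, with Fas at 107 and 65.5 CPM (0.72; 0.14 to 1.26) and Ripk1 at 0.64. Of 11 SNARE genes 0 were above 1, with Snap23 at 0.31 and Stxbp3 at 0.28, both with intervals that included 0. Of 5 RASSF genes 0 were above 1. Rassf4 was highest at 0.89 (−0.12 to 1.81, from 16 and 27 UMIs). Rassf3 had 249 and 188 CPM, a log2 ratio of 0.41 (0.05 to 0.75), and Rassf2 had 0 thymic and 13 epigonadal UMIs. Of 8 genes of the tubulin tyrosine ligase-like list, which also holds enzymes that remove glutamate from tubulin, 0 were above 1, with Ttll12 at 0.84 and Ttll5 at 0.39, both with intervals that included 0.

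Chromatin of the 6-month thymic nuclei was counted as fragments over each gene with 2 kb on either side, per 1000000 fragments of a label (FPM). The labels were thyAD I (146 nuclei, 1646902 fragments), thyAD II (140 nuclei, 2189613) and Immune (31 nuclei, 561387). None of the 8 genes was above a log2 ratio of 1 in thyAD II over thyAD I, where 4.46% of 27863 genes were. Tnfrsf21 had 54 and 20 fragments, or 24.7 and 12.1 FPM, a log2 ratio that rounds to 1.0 without passing 1 (0.26 to 1.84), and Rassf9 had 14 and 5 fragments, 0.99 (−0.48 to 2.90). Dlg2 had 284 and 333 FPM, a log2 ratio of −0.23 (−0.40 to −0.06). Hmcn1 (0.33), Stxbp6 (0.29), Hdac9 (0.13), Ttll7 (0.03) and P4ha1 (−0.34) had intervals that included 0. The median of the 8 was 0.21, against 0.02 for all genes. Rassf9 and Tnfrsf21 lay so near 1 that both passed it when cut sites were counted (1.03 and 1.01), and Rassf9 had 2.86 without the 2 kb on either side.

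The name thyAD II does not make these nuclei a counterpart of Ad IIa. The windows of the 15 endothelial markers held 328 FPM in thyAD I, 348 in thyAD II and 379 in Immune, and 7 of 15 were higher in thyAD II than in thyAD I. Pecam1, an endothelial junction gene that leukocytes also use, had 44.3, 53.4 and 85.5 FPM. The windows of the adipocyte markers held 2230, 2017 and 1397 FPM. Against the Immune nuclei, Hmcn1 was below −1 in both labels, where 8.82% and 9.5% of genes were. It had 55.7 FPM in thyAD II and 44.3 in thyAD I against 130 (log2 ratios of −1.23 and −1.55). The 73 Immune fragments of Hmcn1 lay in 13 of 31 nuclei (41.9%), with a median of 0 per nucleus. A fragment was found in 49.3% of thyAD II and 37.7% of thyAD I nuclei, so that share was not highest in Immune. Tnfrsf21 was below −1 in thyAD I (12.1 against 30.3 FPM, −1.32) and had −0.32 in thyAD II with an interval that included 0. Hdac9 was higher in both labels, at 200 and 183 FPM against 135 (0.55 and 0.43).

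The promoters below are from RefSeq (GRCm38.p6, 250 bases before to 50 after a gene start). They are those of the genes whose matched RefSeq starts held the most fragments, and of Hdac9, whose start shown held 1 fragment. RefSeq promoters were matched for 7 of the 8 genes, with 10 starts. Each is written along the gene, 5′ to 3′, and capitals mark the motif named with it. The TATA letters of P4ha1 lie within the 50 bases after its gene start, and those of Hdac9 lie before its start.
P4ha1 (chr10:59323046-59323345, plus strand, TATA): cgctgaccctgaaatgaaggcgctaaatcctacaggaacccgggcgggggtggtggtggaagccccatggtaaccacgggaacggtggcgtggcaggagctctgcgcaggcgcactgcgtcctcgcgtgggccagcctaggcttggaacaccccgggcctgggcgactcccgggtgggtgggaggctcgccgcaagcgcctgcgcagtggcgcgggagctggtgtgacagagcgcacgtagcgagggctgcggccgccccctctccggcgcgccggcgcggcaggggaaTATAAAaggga
Tnfrsf21 (chr17:43016305-43016604, plus strand, E-box): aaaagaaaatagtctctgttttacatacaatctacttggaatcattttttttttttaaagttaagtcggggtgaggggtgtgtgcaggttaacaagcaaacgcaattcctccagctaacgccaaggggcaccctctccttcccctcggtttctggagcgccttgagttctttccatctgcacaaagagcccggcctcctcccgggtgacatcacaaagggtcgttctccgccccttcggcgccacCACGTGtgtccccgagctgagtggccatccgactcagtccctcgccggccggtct
Stxbp6 (chr12:45074434-45074733, minus strand, RBPJ): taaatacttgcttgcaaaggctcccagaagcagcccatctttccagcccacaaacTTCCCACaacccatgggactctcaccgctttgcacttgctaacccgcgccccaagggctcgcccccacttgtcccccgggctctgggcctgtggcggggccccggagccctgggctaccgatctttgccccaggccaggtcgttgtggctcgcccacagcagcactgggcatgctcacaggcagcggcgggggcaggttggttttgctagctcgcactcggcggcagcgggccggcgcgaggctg
Hdac9 (chr12:34917046-34917345, minus strand, TATA): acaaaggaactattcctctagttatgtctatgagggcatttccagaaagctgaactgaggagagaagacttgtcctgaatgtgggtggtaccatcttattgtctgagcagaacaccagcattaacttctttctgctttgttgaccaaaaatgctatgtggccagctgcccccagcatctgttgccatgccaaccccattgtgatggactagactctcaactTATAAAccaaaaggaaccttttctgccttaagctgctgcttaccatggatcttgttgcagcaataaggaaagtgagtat

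Within 1 kb of these starts, labelled nuclei held 211 fragments at P4ha1, more than at 95.3% of all RefSeq starts, 45 at Tnfrsf21, 45 at Stxbp6 and 1 at the Hdac9 start shown. The P4ha1 promoter above had 70.3% G and C with 32 CpG and the Hdac9 promoter 44.0% with 0 CpG. The remaining starts held 11 fragments (Hmcn1), 8 (Ttll7), 0 (the second Hdac9 start) and 1 to 2 (3 Dlg2 starts). None of the matched Dlg2 starts lay at the 5′ end of its gene span. The 1 kb stretches directly before and after that end held 175 and 117 labelled fragments. The P4ha1 start had 41.1 FPM in thyAD II, 52.2 in thyAD I and 62.3 in Immune nuclei. The start of Tnfrsf21 had 10.0, 6.07 and 23.2 FPM, so it was highest in the Immune nuclei (log2 ratio −1.23, −2.26 to −0.09, thyAD II over Immune; 5.9% of 14549 starts were below −1). In thyAD I over Immune it had −1.92 (−3.28 to −0.63), where 6.2% of 13576 starts were below −1. The start of Stxbp6 had 12.3, 9.11 and 5.34 FPM. Its log2 ratio was 1.01 in thyAD II over Immune (27 and 3 fragments), where 12.0% of starts were above 1, with an interval that included 0.

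**Figure D5:**
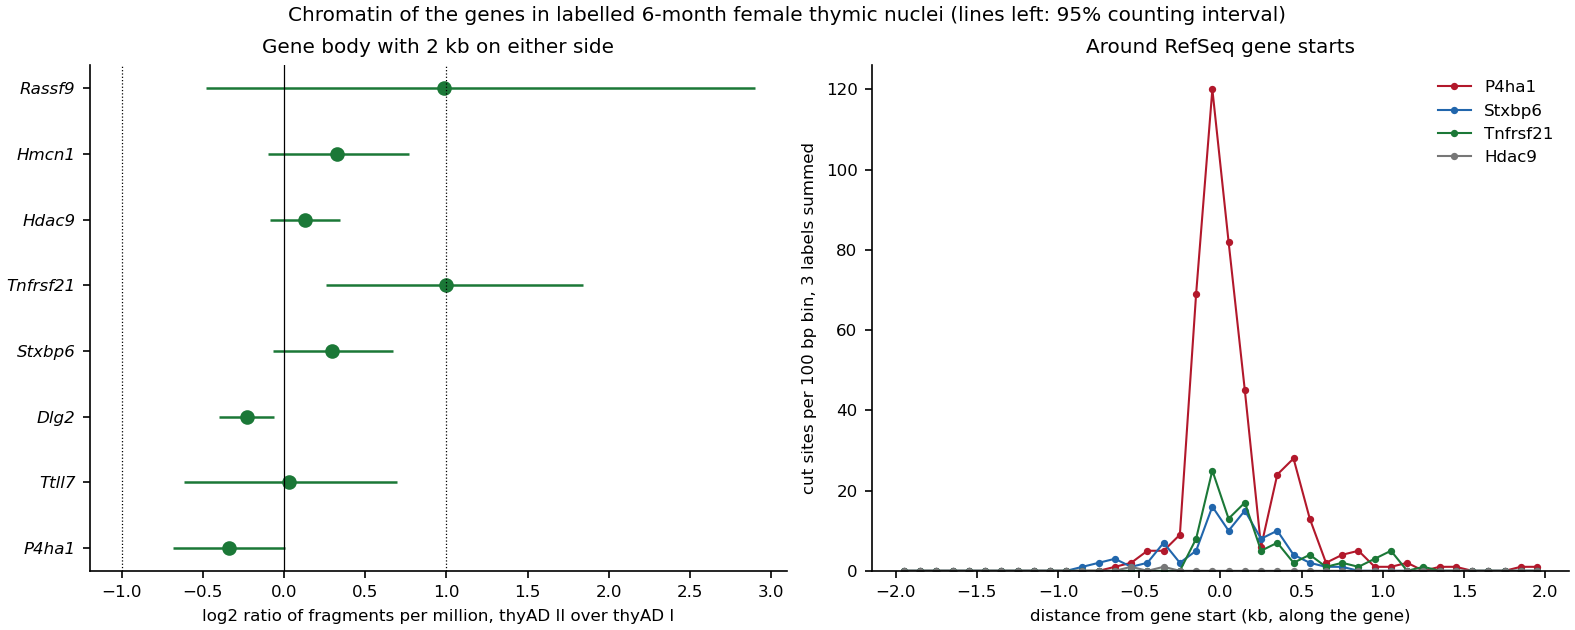
Left, log2 ratio of FPM over each gene with 2 kb on either side, thyAD II over thyAD I, with 95% counting intervals; dotted lines are −1 and 1. Right, cut sites in 100 bp bins (linear axis from 0) around 4 RefSeq gene starts, summed over the 3 labels. The 8 ratios run from −0.34 (P4ha1) to 1.0 (Tnfrsf21), and cut sites pile up at the P4ha1 start and are near 0 around the Hdac9 start.

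Short motifs were searched in these windows on both strands. The ETS letters CCGGAAG, for a factor family that drives endothelial genes, were in 0 of the 10 starts and in 8.86% of 32851 promoters. The RBPJ letters GTGGGAA were in 2 (Stxbp6 and a Dlg2 start; 6.38% of promoters), and the FOX letters GTAAACA in 1 (Hmcn1; 3.65%). The hypoxia response core ACGTG was in 2 (P4ha1 and Tnfrsf21; 19.6%), in Tnfrsf21 within the E-box CACGTG shown above, which was in that 1 start (7.15%). The GC box GGGCGG was in 2 (P4ha1 and Tnfrsf21; 35.7%), TATAAA in 3 (P4ha1, a Hdac9 and a Dlg2 start; 13.6%), and the AP-1 letters TGANTCA in 1 (the second Hdac9 start; 7.81%). A match is a match of letters and no match says nothing of the factor.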

How the data were processed

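RNA libraries of 4-month males (thymic and epigonadal) and 1 chromatin library of 6-month female thymi were used; RNA of the last was not used here. Raw UMI counts were deposited for each gene and barcode (cellranger 7.2.0, per the file headers); the submitters' processing notes name mm10, Cell Ranger ARC 2.0.2 and Seurat 5.1.0. For each labelled nucleus the authors deposited a UMI count, a mitochondrial percent, a doublet class and a label, and for the chromatin nuclei the ratio of insertions at gene starts to flanks. No doublet caller was run here. Fragments came from cellranger-arc 2.0.2 on GRCm38, per the file headers, as deposited counts; the nucleus table at hand stops inside a row, and its 317 complete rows were used, so its labels may hold more nuclei.

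UMIs were summed over the nuclei of a label in 1 library and divided by nuclear-encoded UMIs (CPM). Log2 ratios had 0.5 UMI added. Intervals (95%) were exact binomial for the split of UMIs behind a ratio, Poisson for sums and Clopper-Pearson for shares. A call was a log2 ratio above 1 or below −1 among genes with at least 10 UMIs or fragments over both sides; a count of 0 had a floor of 3 counts. No test was possible with 1 library a group. The ratio code was tested on simulated data. Thinning was to 500 UMIs. Fragments were counted per gene with 2 kb on either side and within 1 kb of RefSeq starts. The genes and lists were chosen with earlier results of these data known. Named besides the 8 genes were genes of ranks 9 to 13 of the ordering that are not among them, where used, the 2 highest and 2 lowest genes of each list in Ad IIa where used, the 2 genes nearest in pattern, and 7 markers; Robo2 was named after its values were seen. Alternatives were other scalings (edgeR 4.0.16 TMM factors, median of ratios), equal weight per nucleus, depth limits, single labels and other marker minimums. Further ones were cut sites, a pseudocount of 5 and subtraction of the profile of unlabelled barcodes. Chosen after seeing the data were the endothelial-list scaling and the 10% mitochondrial limit. So were leaving out shared barcodes or the 5 highest nuclei, and allowing adipocyte markers alone. Scripts ran in Python 3.11.15 with numpy 2.4.6, pandas 2.3.3 and SciPy 1.17.1, and R 4.3.3.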

Additional observations from a re-analysis of the deposited data

Results flagged for a closer look

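Dlg2, Hdac9 and Stxbp6 had effects of opposite sign under the same contrast in different labels or libraries. The differences between these effects were not tested. Dlg2 in thymic over epigonadal nuclei had a log2 ratio of −0.19 in Ad I and 2.10 in Ad IIa. For Ad IIa over Ad I, thymic nuclei gave Dlg2 a log2 ratio of 0.85 and epigonadal nuclei −1.44. For Hdac9 the same contrast gave 1.55 among thymic and −0.24 among epigonadal nuclei. Stxbp6 in thymic over epigonadal nuclei had −0.20 in Ad I and 1.53 in Ad IIa. The counting intervals included 0 for Dlg2 and Stxbp6 in Ad I, for Dlg2 in the thymic library and for Hdac9 in the epigonadal library.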

How the results depend on the processing

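No paired analysis was possible because each group was 1 library. All 8 genes were above 1 in Ad IIa, thymic over epigonadal, under 9 of 11 alternatives; thinning and the 10% mitochondrial limit gave 7 (Ttll7 below). Over all labelled nuclei an equal mix of labels gave 7 (Dlg2 0.49) and scaling by endothelial-list UMIs gave 7 (P4ha1 0.99). The Ad I comparison (2 genes above 1) gave 1 with TMM, with median-of-ratios, with at least 1000 UMIs and with Ad Ib alone, and 0 when thinned and with Ad Ia alone. Ad IIa over Ad I (5 thymic, 4 epigonadal) gave 1 (Stxbp6) in each library with a pseudocount of 5. For unlabelled endothelial-marker barcodes (0) it was 7 with markers of other classes kept and 7 with adipocyte markers alone kept. There Hdac9 and P4ha1, each at −1.05 against 1 barcode, turned to 0.28 and 0.28 with 2 markers, 2.38 and 2.24 with other classes kept, and 3.03 and 2.51 with adipocyte markers kept. With 5 markers or under 5% mitochondrial UMIs no value could be had, as 0 epigonadal barcodes qualified. Chromatin (0 above 1) gave 2 with cut sites, 1 without flanks and 2 with gene-start scaling. Of the 16 genes nearest in pattern, log2(CPM + 1) gave 8 and Spearman's rho 5 of the same genes. Of 395 single-gene values under an alternative, 27 changed sign. Of these, 6 were the values above and 21 were values whose counting interval included 0: Dlg2, Hdac9 and Stxbp6 in Ad I, and Dlg2, Hdac9, Tnfrsf21 and P4ha1 in Ad IIa over Ad I. Few UMIs limited Ad I, Ad IIb and the unlabelled endothelial-marker barcodes.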

Other observations

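The 1 kb stretches with most fragments in the Hdac9 and Dlg2 windows, flanks included, lay far from the starts in the RefSeq promoter table. For Dlg2, chr7:90475188-90476187 held 175 labelled fragments. It lies in the flank, directly before the 5′ end of the gene span on the plus strand and 615 kb from the nearest such start, with 42.5 FPM (fragments per 1000000) in thyAD I, 37.4 in thyAD II and 41.0 in Immune nuclei. The next stretch, chr7:90476188-90477187, at the 5′ end inside the gene span, held 117. In Hdac9, chr12:34775580-34776579 held 39 fragments, 141 kb from a start, with 7.89 FPM in thyAD I, 11 in thyAD II and 3.56 in Immune nuclei. In P4ha1 the stretch with most fragments, chr10:59323197-59324196 with 175, held the start itself. These stretches were chosen for their fragments, so their counts are a description.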
